A study of Mus musculus with 24 samples.

Results

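The matrix metalloproteinase (*Mmp*), ADAMTS (*Adamts*) and tissue inhibitor of metalloproteinase (*Timp*) genes of cultured mouse osteoblasts (OBs) comprised 42 of the 55335 deposited gene entries. Members were the *Mmp*, *Adamts* and *Timp1* to *Timp4* symbols, without *Adamts2*, *Adamts3* and *Adamts14*, which trim procollagen, and without *Mmp9*, which marks osteoclasts. The choice went by gene symbol and used no measured value, though earlier results of these data were known. It gave 22 *Mmp*, 16 *Adamts* and 4 *Timp* genes. Polyadenylated RNA was sequenced from primary parietal bone cells at days 8, 14 and 21 of osteogenic differentiation, with 4 WT and 4 Het libraries at each day and 24 libraries in all. WT pups were C57BL/6J. Het pups carried a mutant *Col1a2* allele beside a normal one on the same background, a model of osteogenesis imperfecta in which a glycine of the collagen triple helix is replaced by cysteine.

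All cultures of both genotypes came from pups in the first week after birth, grew with ascorbic acid 2-phosphate, and were pooled from several pups of a genotype. Wells of a preparation therefore share their animals, and the p-values below measure the spread between libraries rather than between mice. The 2 experiments behind the libraries differed in plating density and early oxygen, and the sources used here do not say which replicate numbers belong to which. The paper describes 1 well per genotype and time point in the first of them and 2 in the second, fewer than the 4 libraries of each group. How the 4 libraries arose from those wells is not stated, so whether each is an independent culture is not known. Libraries held 17140202 to 59734231 counts, and replicate 1 was the shallowest of every group (17140202 to 25825762). Replicate 1 also stood apart in the values of several members, so genotype results are given with and without it. All 9 osteoblast markers were detected, with summed levels of 32.3 to 89.0 in WT and 34.6 to 70.4 in Het at day 8, and 170.0 to 340.0 at the later days. Macrophage and chondrocyte markers were also present and moved with day and genotype, as given beside the results they accompany. At day 8 the chondrocyte sum was 21.4 to 35.8 in WT and 5.77 to 34.6 in Het. In replicate 1 of day 8 it was as high as the osteoblast sum (35.8 against 32.3 in WT, and 34.6 against 34.6 in Het). Levels are RQ, a gene's count relative to 4 housekeeping genes of its library (*Actb*, *Actg1*, *Sdha* and *Mrfap1*, combined as a geometric mean). Values listed for a group are in the order of replicates 1 to 4.

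Matrix metalloproteinases are secreted or membrane-bound zinc enzymes that are made as inactive proenzymes and cut collagens, proteoglycans and other matrix proteins once activated. ADAMTS enzymes are secreted relatives whose members cut large proteoglycans such as aggrecan and versican, or act on fibrillin microfibrils, while TIMPs bind the active site of these enzymes and block it. In bone, osteoblasts and osteocytes make the collagenase *Mmp13*, and *Mmp2* and *Mmp14* are needed for normal skeletal remodelling.

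Most members were detected, but they covered a wide range of levels. At days 14 and 21, and in the comparison over all days, 36 members passed the filter on low counts, and 33 passed it at day 8, where *Mmp10*, *Mmp20* and *Mmp27* were too low. The remaining 6 were near 0, with at most 13 counts in a library for *Mmp1a*, 4 for *Adamts13*, 3 for *Mmp1b*, 2 for *Mmp21*, 2 for *Mmp7* and 1 for *Adamts19*. Exons of 13 members share bases with another gene on the other strand, and the strand setting of the counting was not given in the sources used here. This concerns *Adamts4*, *Adamts7*, *Adamts8*, *Adamts9* (1805 bases with 2 noncoding genes), *Mmp7*, *Mmp11* (with *Chchd10*), *Mmp12* and *Mmp1b* (with each other), *Mmp19*, *Mmp24*, *Mmp28*, *Timp3* (1733 bases with *Syn3*) and *Timp4*. Their reads cannot be told apart from those of the partner if strand was not used.

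Per kilobase of merged exons, a handful of genes made up most of the signal. In WT OBs at day 8, the highest levels in RQ per kb were those of *Timp1* (1.03 ± 0.248, SD, n = 4), *Timp2* (0.872 ± 0.0342), *Mmp2* (0.711 ± 0.0167), *Mmp13* (0.404 ± 0.033) and *Mmp14* (0.198 ± 0.0264). *Timp1* and *Timp2* did not differ there by more than the spread of *Timp1*. At day 21 in WT, *Mmp13* led with 2.93 ± 1.04 RQ per kb, ahead of *Timp1* (1.31 ± 0.403), *Timp2* (0.766 ± 0.0521), *Mmp2* (0.693 ± 0.0403), *Mmp14* (0.224 ± 0.0259), *Mmp23* (0.142 ± 0.00735) and *Timp3* (0.0453 ± 0.00772). The mean ± SD ranges of *Timp2* and *Mmp2* overlapped on this scale. Every other member was below *Timp3* in WT at day 21, among them *Mmp19* (0.0352 ± 0.00295) and *Adamts10* (0.0347 ± 0.0022), whose ranges overlapped. With the longest transcript as length, *Adamts10* was at 0.0695 and *Mmp19* at 0.0366 RQ per kb.

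**Figure D1:**
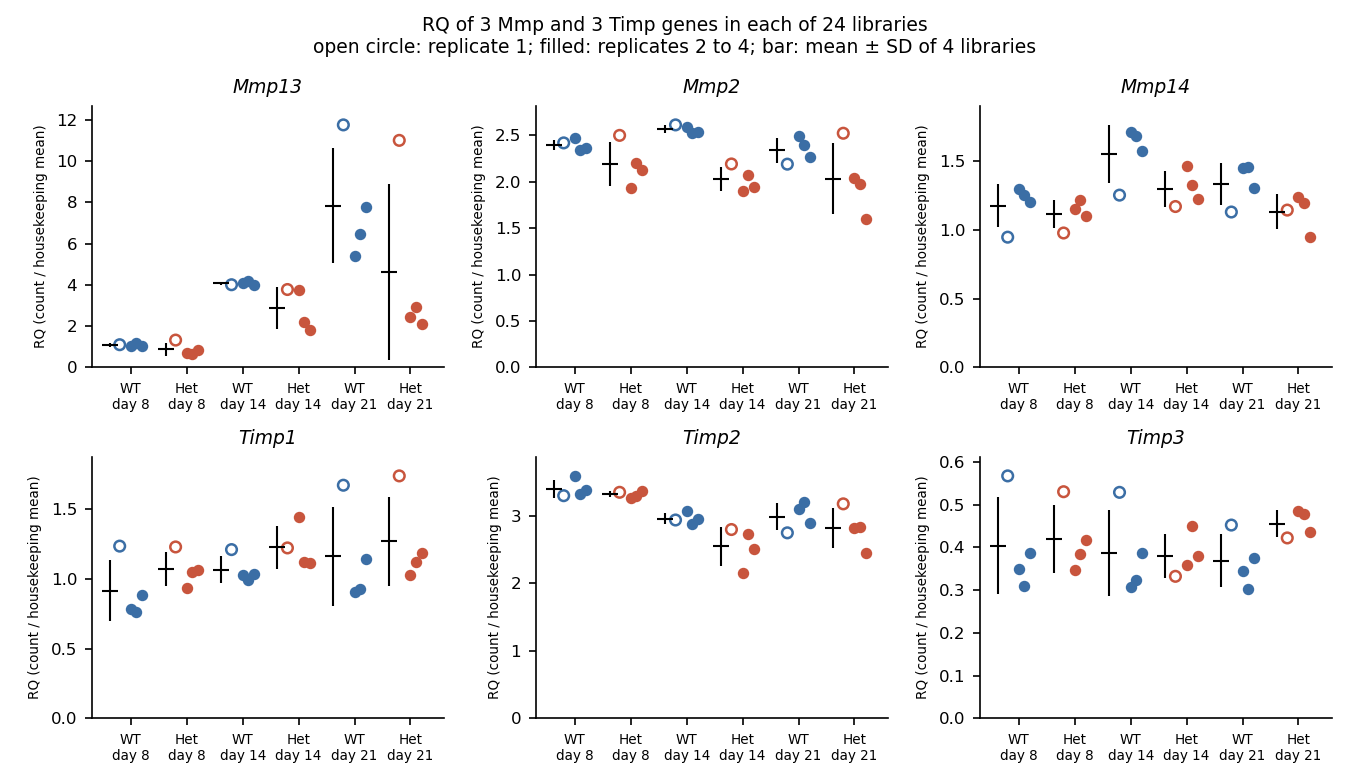
RQ (count relative to 4 housekeeping genes) of *Mmp13*, *Mmp2*, *Mmp14*, *Timp1*, *Timp2* and *Timp3* in each of the 24 libraries, by genotype and day, with circles for libraries (open for replicate 1) and bars for the group mean ± SD (n = 4). *Mmp13* rose from 0.629–1.32 at day 8 to 2.10–11.8 at day 21, while *Mmp2* stayed between 1.6 and 2.61 throughout.

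The comparison of days 14 and 21 with day 8 asks how the enzymes and inhibitors changed as the cultures matured. Of the 36 members tested, 22 rose and 4 fell at an adjusted p under 0.05 in edgeR's quasi-likelihood test with Benjamini-Hochberg adjustment over all genes tested (the edgeR adjusted p below). Among all 20434 genes, 58.3% were called, 40.9% higher and 17.4% lower. The replicate number as a block gave 24 and 4 members (64.2% of all genes called), and DESeq2's Wald test gave 23 and 4 (59.8% of all genes). The median log2 difference was 0.63 over the members and 0.16 over all genes. Maturation was also the comparison that depended most on scaling. With TMM scaling, 20 members rose and 5 fell, and with scaling to the total count 17 rose and 12 fell. The share of higher genes among all called genes was 70.1% with housekeeping scaling, 53.1% with TMM, 50.4% with DESeq2 size factors and 33.0% with the total count. The median of all genes was 0.03 with TMM, 0.02 with DESeq2 size factors and -0.14 with the total count. *Mmp14* and *Mmp19* were no longer called higher with TMM, and with the total count *Mmp14*, *Mmp17*, *Mmp23* and *Mmp28* were not called. *Mmp19* was then called lower, as were *Mmp2*, *Mmp11*, *Adamts1*, *Adamts4*, *Adamts7*, *Adamts20* and *Timp3*.

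The *Mmp* genes clustered on chromosome 9 included the 3 largest rises, those of *Mmp27*, *Mmp12* and *Mmp8*. The 10 genes lie within 427072 bases, at chr9:7272514-7699585 (GRCm38.p6), and encode the collagenases *Mmp13*, *Mmp8*, *Mmp1a* and *Mmp1b*, the stromelysins *Mmp3* and *Mmp10*, the macrophage elastase *Mmp12*, matrilysin (*Mmp7*), enamelysin (*Mmp20*) and *Mmp27*. All 7 that were tested rose from day 8 to days 14 and 21, as did 40.9% of all genes, with a median log2 difference of 2.47. Because these neighbours rose together, their 250-base upstream windows were searched for 3 motifs on both strands: TGANTCA, the core bound by AP-1, TGTGGT, the core bound by RUNX factors (ACCACA on the other strand), and TATAAA, the TATA box. The 3 motifs share no overlapping letters in the windows printed. Sequences are from RefSeq on GRCm38.p6, written 5′ to 3′ on the plus strand, which is the coding strand of all 5 genes shown, and capitals mark the matches. The windows are chr9:7272264-7272513 for *Mmp13*, chr9:7445572-7445821 for *Mmp3*, chr9:7502092-7502341 for *Mmp10*, chr9:7347124-7347373 for *Mmp12* (the downstream of 2 RefSeq starts) and chr9:7558179-7558428 for *Mmp8*, shown as a neighbour with no match. The window of the upstream *Mmp12* start, chr9:7344147-7344396, is not printed and held no match to the 3 motifs. That start lies 16 bases from the annotated start of the gene, and the downstream one 2993 bases.
Mmp13: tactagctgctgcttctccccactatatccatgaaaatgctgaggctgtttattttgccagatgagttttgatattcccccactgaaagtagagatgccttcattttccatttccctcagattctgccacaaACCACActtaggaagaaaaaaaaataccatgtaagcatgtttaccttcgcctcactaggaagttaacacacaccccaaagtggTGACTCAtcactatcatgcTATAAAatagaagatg
Mmp3: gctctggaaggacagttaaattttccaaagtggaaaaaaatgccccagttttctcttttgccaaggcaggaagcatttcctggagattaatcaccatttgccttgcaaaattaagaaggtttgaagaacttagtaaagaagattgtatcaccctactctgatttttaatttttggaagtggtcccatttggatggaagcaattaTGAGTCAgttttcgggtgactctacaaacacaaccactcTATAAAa
Mmp10: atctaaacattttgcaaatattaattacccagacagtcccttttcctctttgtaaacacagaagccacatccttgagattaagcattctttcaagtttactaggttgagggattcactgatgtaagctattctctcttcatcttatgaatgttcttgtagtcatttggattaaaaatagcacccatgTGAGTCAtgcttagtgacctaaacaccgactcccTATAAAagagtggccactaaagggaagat
Mmp12: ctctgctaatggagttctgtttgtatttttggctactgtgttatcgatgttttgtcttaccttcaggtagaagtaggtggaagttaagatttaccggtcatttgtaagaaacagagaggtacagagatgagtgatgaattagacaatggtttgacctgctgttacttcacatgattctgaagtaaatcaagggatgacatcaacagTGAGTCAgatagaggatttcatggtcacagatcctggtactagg
Mmp8: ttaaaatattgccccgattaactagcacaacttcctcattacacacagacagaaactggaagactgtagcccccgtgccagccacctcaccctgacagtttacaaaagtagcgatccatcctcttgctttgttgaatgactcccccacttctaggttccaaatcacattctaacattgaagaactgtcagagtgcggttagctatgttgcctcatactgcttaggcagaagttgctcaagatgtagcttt
An AP-1 core was found in 8 of the 12 windows of the 10 cluster genes and in 0 of the 20 windows of 19 other members. *Mmp27*, with the largest rise, and *Mmp8* held neither an AP-1 core nor a TATA box. *Mmp1a*, *Mmp1b* and *Mmp7*, too low to be tested for a rise, held both. Across all 32851 RefSeq windows of the same length, 6.75% held it. The TATA box was in 7 of the 12 cluster windows (12.4% of all windows) and the RUNX core in 4 of 12 (14.0% of all windows). In the *Mmp13* window the AP-1 core began at position -35, the RUNX core at -118 and the TATA box at -16, where -1 is the last base before the start site. A match is only a description of these letters, and no binding was measured. Windows were found for 29 of the 42 members.

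*Mmp13*, collagenase-3 and the main collagenase of mouse osteoblasts, was the most abundant of the cluster. Its RQ at day 8 was 1.10, 1.01, 1.2 and 1.02 in WT against 1.32, 0.689, 0.629 and 0.843 in Het. At day 14 it was 4.00, 4.09, 4.16 and 4.01 in WT against 3.77, 3.74, 2.18 and 1.79 in Het. At day 21 it was 11.8, 5.37, 6.47 and 7.78 in WT against 11, 2.42, 2.93 and 2.10 in Het. Every later library lay above every day 8 library, and the replicate 1 libraries of day 21 were the highest of their groups. The rise was 2.22 ± 0.27 (log2 ± SE, edgeR adjusted p = 4.22e-07).

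*Mmp12*, an elastase made mainly by macrophages, rose with a log2 difference of 4.02 ± 0.38 (edgeR adjusted p = 9.54e-09). The 8 libraries of day 8 held 0.00223 to 0.0142 (RQ), those of day 14 held 0.0221 to 0.17 and those of day 21 held 0.0991 to 0.45. The day 8 libraries did not overlap the later ones. *Mmp27* showed the largest difference, 5.03 ± 0.40 (edgeR adjusted p = 5.83e-10), from an RQ of 0 to 0.00027 at day 8 to 0.000964 to 0.00908 later, again with no overlap. *Mmp8*, the collagenase stored by neutrophils, rose from 0.000621–0.00128 at day 8 to 0.00257–0.0159 later (log2 difference 3.05 ± 0.20, edgeR adjusted p = 2.41e-11), with no overlap either. Of 9 neutrophil markers, 2 were tested and 1 rose, and the summed RQ of the list went from 0.000586–0.00283 at day 8 to 0.0081–0.0702 later, while the defining *S100a9* and *Ly6g* had no counts in any library. Their part in the rise of *Mmp8* was not tested.

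*Mmp3*, a stromelysin that cuts many matrix proteins and activates other proenzymes, rose from 0.000498–0.00177 at day 8 to 0.00147–0.0235 later, where the ranges overlapped through the Het replicate 1 library of day 14. Its log2 difference was 2.37 ± 0.34 (edgeR adjusted p = 3.56e-06). *Mmp10* (2.47, adjusted p = 2.36e-05 by edgeR) and the enamel enzyme gene *Mmp20* (2.33, adjusted p = 0.000535 by edgeR) rose from levels of 0 to 0.000121 at day 8, and remained at or below 0.00101 in every library.

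Cell type markers moved with this comparison, in which 40.9% of all genes rose and 17.4% fell. All 12 macrophage markers rose (median log2 difference 3.92), and their summed RQ went from 0.252–0.501 in WT and 0.423–1.11 in Het at day 8 to 1.58–7.83 in WT and 3.52–19.8 in Het later. All 9 osteoblast markers rose too (median 2.42), as did 5 of the 7 osteoclast markers tested, while 5 of 8 chondrocyte markers and 5 of 6 smooth muscle and pericyte markers fell. In bulk libraries fewer cells of a type and less RNA per cell cannot be told apart, and the part of these markers in the rises was not tested.

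**Figure D2:**
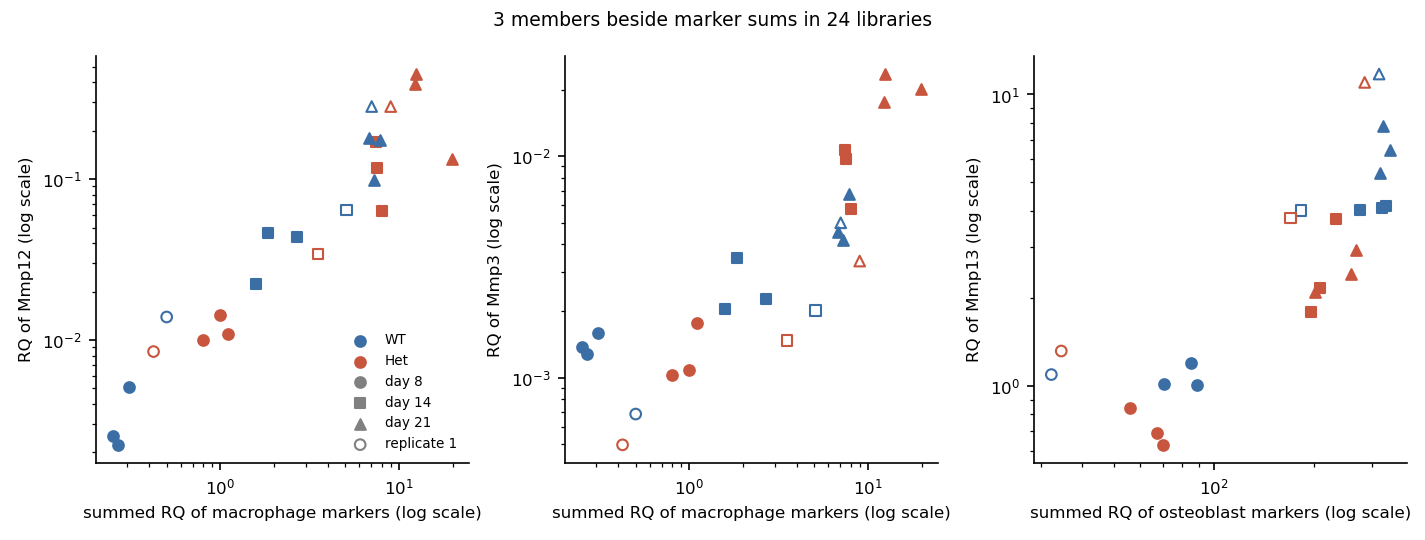
RQ of *Mmp12* and *Mmp3* against the summed RQ of 12 macrophage markers, and of *Mmp13* against the summed RQ of 9 osteoblast markers, on log axes, with a point for each of the 24 libraries (blue WT, red Het, open for replicate 1, circles, squares and triangles for days 8, 14 and 21). *Mmp12* was lowest (0.00223 to 0.0142) in the day 8 libraries, where the macrophage sum was at most 1.11, and the libraries share their scaling genes on both axes.

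Outside the cluster, the gelatinase and the membrane-type enzymes changed less. *Mmp2*, gelatinase A, showed a log2 difference of -0.04 ± 0.06 (edgeR adjusted p = 0.61), with RQ values of 1.94 to 2.5 at day 8 and of 1.6 to 2.61 later. With the other scalings it was called lower, by -0.16 with TMM (edgeR adjusted p = 0.00707), -0.18 with DESeq2 size factors (edgeR adjusted p = 0.00224) and -0.34 with the total count (edgeR adjusted p = 2.21e-06). *Mmp14*, the membrane-type enzyme that activates the *Mmp2* proenzyme with the help of TIMP2, rose by 0.21 ± 0.07 (edgeR adjusted p = 0.0207), from 0.948–1.30 to 0.951–1.71, and this difference was -0.10 with scaling to the total count. Of the 7 membrane-bound enzymes, 4 rose and 2 fell (40.9% and 17.4% among all genes). The clearest was *Mmp16*, another transmembrane enzyme, which rose by 0.79 ± 0.07 (edgeR adjusted p = 2.39e-09) from 0.0564–0.0771 to 0.0929–0.142 with no overlap. *Mmp17* (0.48, edgeR adjusted p = 0.00521) and *Mmp23* (0.37, edgeR adjusted p = 2.38e-05) also rose, while *Mmp15* (-0.49 ± 0.11, edgeR adjusted p = 0.000598) and *Mmp24* (-0.18 ± 0.07, edgeR adjusted p = 0.0194) fell. *Mmp25* was at 0.00027 to 0.00113 in all libraries and showed -0.08. Among the remaining secreted enzymes, *Mmp28* (epilysin, 0.54, edgeR adjusted p = 0.00117) and *Mmp19* (0.20, edgeR adjusted p = 0.00215) rose, and *Mmp11* (stromelysin-3) differed by 0.08 ± 0.07.

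Of 14 *Adamts* genes tested, 8 rose and 1 fell, where 40.9% of all genes rose and 17.4% fell. *Adamts15*, *Adamts17* and *Adamts18* showed the largest rises. The RQ of *Adamts17*, one of the relatives linked to fibrillin microfibrils, went from 0.00274–0.014 at day 8 to 0.0341–0.0876 later (log2 difference 2.84 ± 0.22, edgeR adjusted p = 4.34e-10). *Adamts18* rose from 0.00156–0.0275 to 0.042–0.117 (2.77 ± 0.29, edgeR adjusted p = 3.95e-08). In neither did the later libraries overlap those of day 8, where the replicate 1 libraries were the lowest of their groups. *Adamts15*, a proteoglycanase, rose from 0.000506–0.00321 to 0.00707–0.0158 (2.62 ± 0.17, edgeR adjusted p = 3.59e-11), also with no overlap.

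Of the 7 genes that encode aggrecan or versican cleaving enzymes (*Adamts1*, *Adamts4*, *Adamts5*, *Adamts8*, *Adamts9*, *Adamts15* and *Adamts20*), 3 rose and none fell in edgeR (40.9% and 17.4% among all genes). Beside *Adamts15* these were *Adamts9* (1.38, edgeR adjusted p = 7.24e-07) and *Adamts5* (0.72, edgeR adjusted p = 0.000354). *Adamts1* (0.08) and *Adamts4* (0.06), a main aggrecanase, were within 0.1 of 0, and *Adamts20* (-0.35 ± 0.28) was at most 0.00178 RQ in every library. *Adamts8* had a log2 difference of 1.24 ± 0.56 (edgeR adjusted p = 0.0639, and 6.46e-06 with the replicate number as a block). Its RQ was higher in the later library in 16 of 16 same-numbered pairs, in which each day 8 library counts against day 14 and again against day 21. The replicate 1 libraries, however, held 0 to 0.000793 and the others 0.000965 to 0.00906. The fibrillin-associated *Adamts10* (0.87, edgeR adjusted p = 1.47e-10) and *Adamts6* (1.30, edgeR adjusted p = 1.12e-08) rose, as did *Adamts12* (0.82, edgeR adjusted p = 4.33e-05), which can cut the cartilage protein COMP. *Adamts7*, its closest relative, differed by -0.02 ± 0.07. *Adamts16* fell by 2.20 ± 0.41 on the log2 scale (edgeR adjusted p = 8.66e-05) from a low level, 0.000356–0.00329 at day 8.

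Of the 4 inhibitors, *Timp4* rose and *Timp2* fell. *Timp2* went from an RQ of 3.27–3.59 at day 8 to 2.16–3.20 at days 14 and 21, with no overlap and lower values in 16 of 16 same-numbered pairs. Each day 8 library counts in these pairs against day 14 and again against day 21. The log2 difference was -0.25 ± 0.05 (edgeR adjusted p = 0.000162). *Timp1*, a secreted inhibitor of most metalloproteinases, ranged from 0.76 to 1.24 at day 8 and from 0.904 to 1.74 later, with a log2 difference of 0.25 ± 0.12 (edgeR adjusted p = 0.0714, and 0.0075 with the replicate block). That of *Timp3*, which binds to the matrix and also inhibits ADAMTS enzymes, was -0.05 ± 0.11 (edgeR adjusted p = 0.717), with overlapping ranges of 0.31–0.567 and 0.303–0.528. *Timp4* was the lowest of the family, with 0.000202 to 0.00164 at day 8 and 0.000555 to 0.00673 later, and rose by 1.53 ± 0.45 (edgeR adjusted p = 0.00621).

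**Figure D3:**
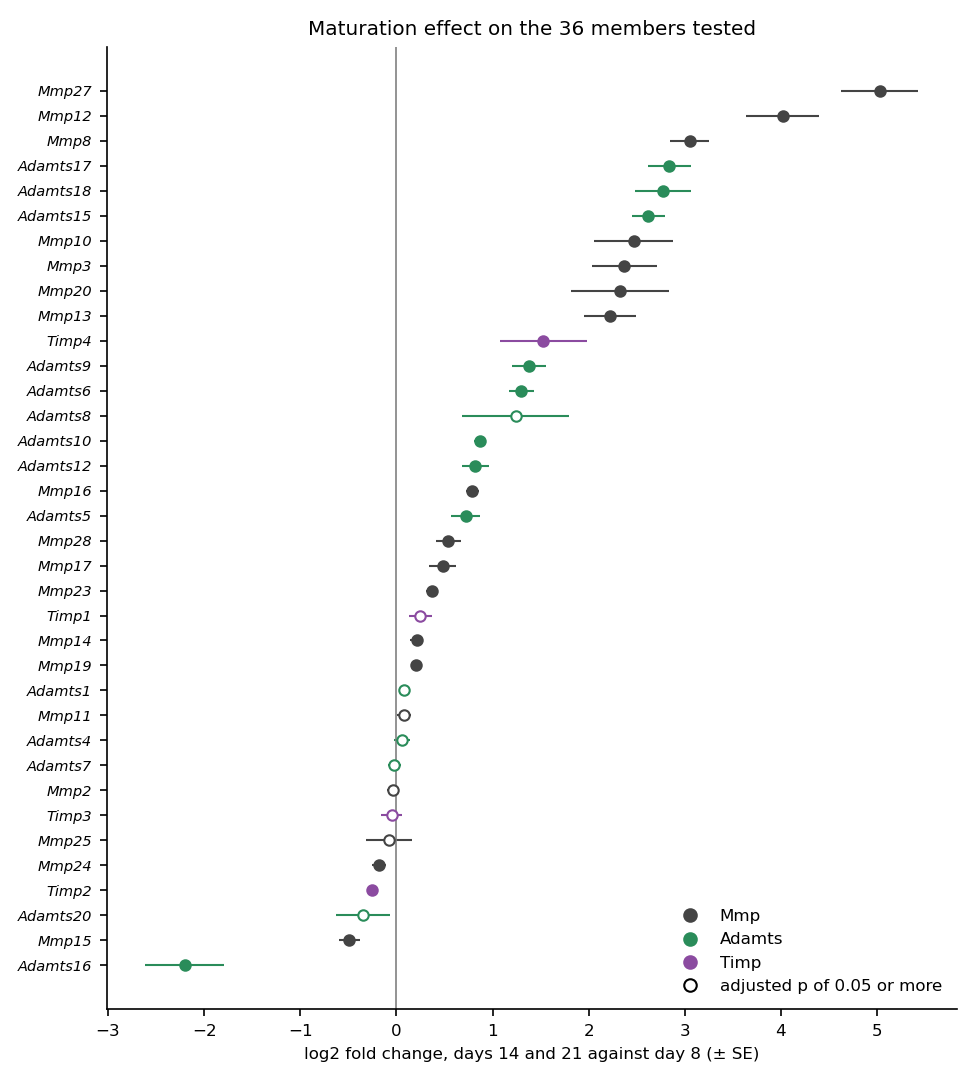
Log2 difference ± SE (edgeR) between days 14 and 21 and day 8 for the 36 members tested, ordered by size and coloured by family (*Mmp*, *Adamts* or *Timp*), with filled points for an adjusted p under 0.05 and open points otherwise. *Mmp27* (5.03) and *Mmp12* (4.02) are the highest, and *Adamts16* (-2.20) is the lowest.

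Between days 14 and 21 fewer members moved: 8 rose and 1 fell, against 19.3% called among all 19839 genes (13.3% higher and 5.94% lower). The replicate number as a block gave 11 and 3, with 23.1% of all genes called. All 9 were called with the block, which added *Adamts6*, *Adamts10* and *Mmp17* among those that rose and *Adamts12* and *Mmp14* among those that fell. The share of higher genes among all called was 69.2%, and 55.2% with TMM, 52.0% with DESeq2 size factors and 52.6% with the total count, under which *Adamts1* was not called. Median log2 differences were 0.09 over the members and 0.06 over all genes. *Mmp12* rose most (1.88 ± 0.34, edgeR adjusted p = 0.00118), with higher RQ at day 21 in 8 of 8 same-numbered pairs. *Mmp27* (1.14 ± 0.29, edgeR adjusted p = 0.0113), *Mmp3* (1.13 ± 0.36, edgeR adjusted p = 0.0347) and *Mmp8* (0.81, edgeR adjusted p = 0.0113) followed, so that 4 of 7 cluster genes tested rose. All 12 macrophage markers rose between these days as well, and their part in these rises was not tested.

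*Mmp11* and *Mmp19* rose little but in every same-numbered pair. *Mmp11* was at 0.0266 to 0.0304 in the 8 libraries of day 14 and at 0.0328 to 0.0421 at day 21 (0.37, edgeR adjusted p = 0.000579). *Mmp19* was at 0.0772 to 0.1096 and 0.1097 to 0.134 (0.35, edgeR adjusted p = 0.000882). Neither overlapped between days, *Mmp19* by the narrowest of margins. *Adamts5* (0.42, edgeR adjusted p = 0.0157) and *Adamts1* (0.16, edgeR adjusted p = 0.0315) rose, whereas *Adamts4* fell from 0.0493–0.0884 to 0.0491–0.0612 (-0.42 ± 0.09, edgeR adjusted p = 0.00253). *Mmp13* had a log2 difference of 0.82 ± 0.31 (edgeR adjusted p = 0.0761), and 0.31 without replicate 1.

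The comparison of Het with WT OBs at days 14 and 21 asks whether the *Col1a2* mutation changed the matrix-degrading enzymes once collagen was being laid down. *Mmp3* and *Mmp28* were higher and *Adamts9*, *Adamts10*, *Adamts15*, *Adamts17*, *Mmp2*, *Mmp8*, *Mmp14* and *Mmp16* were lower in Het. This made 2 higher and 8 lower members of 36, against 16.1% of all 19839 genes (7.26% higher and 8.88% lower). Median log2 differences were -0.15 over the members and -0.05 over all genes. With the replicate number as a block, 3 members were higher and 13 lower (23.6% of all genes called), and in replicates 2 to 4 alone 7 were higher and 17 lower (39.4% of all genes called). The 10 calls were among those of both settings, in the same direction. DESeq2's Wald test gave 4 and 10 (22.8% of all genes), again including all 10. Most calls were lost in other subsets of the libraries: without replicate 2, 3 or 4, and at day 21 alone, 1 of the 10 was called (*Adamts10*), and at day 14 alone 0 were. The share of higher genes among all called was 45.0%, and it was 63.5% with TMM, 66.1% with DESeq2 size factors and 76.5% with the total count, under which 4 members were higher and 5 lower.

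*Adamts10*, whose product associates with fibrillin microfibrils, gave the smallest adjusted p. Its RQ at day 14 was 0.223, 0.273, 0.276 and 0.25 in WT against 0.169, 0.213, 0.157 and 0.151 in Het. At day 21 it was 0.273, 0.302, 0.302 and 0.268 in WT against 0.23, 0.197, 0.207 and 0.18 in Het. Each Het library was below every WT library of its own day. The log2 difference was -0.53 ± 0.08 (edgeR adjusted p = 0.000615), and the Het to WT ratio of mean RQ was 0.805 in replicate 1 and 0.661 in replicates 2 to 4.

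*Adamts9*, a versican-cleaving enzyme, was split between replicate 1 and the rest. At day 14 its RQ was 0.176, 0.216, 0.218 and 0.201 in WT against 0.205, 0.108, 0.0952 and 0.0821 in Het. At day 21 it was 0.224, 0.209, 0.202 and 0.216 in WT against 0.178, 0.116, 0.11 and 0.0708 in Het. In replicates 2 to 4 the genotypes did not overlap and the ratio was 0.462, whereas it was 0.958 in replicate 1. Over all libraries the log2 difference was -0.79 ± 0.18 (edgeR adjusted p = 0.00989).

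*Adamts17* showed the same split more sharply. Day 14 values were 0.0424, 0.0836, 0.0876 and 0.0698 in WT against 0.0601, 0.0561, 0.0427 and 0.0387 in Het. Day 21 values were 0.0601, 0.0735, 0.0789 and 0.0696 in WT against 0.0681, 0.0445, 0.0478 and 0.0341 in Het. Het was higher than WT in replicate 1 (ratio 1.25) and lower in the others (0.57), with a pooled log2 difference of -0.54 ± 0.15 (edgeR adjusted p = 0.0267). This call of *Adamts17* was lost in 11 alternatives and kept in 24. *Adamts15* was lower in Het in 7 of 8 same-numbered pairs (-0.46 ± 0.12, edgeR adjusted p = 0.0195), with 0.00911–0.0158 in WT and 0.00707–0.0109 in Het. By day, its ratio was 0.586 at day 14 (log2 difference -0.78, edgeR adjusted p = 0.0616) and 0.904 at day 21 (-0.14, edgeR adjusted p = 0.616).

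*Mmp3* was the member that rose most in Het, with a log2 difference of 1.6 ± 0.36 (edgeR adjusted p = 0.00901). Its RQ was 0.00201, 0.00346, 0.00204 and 0.00228 in WT against 0.00147, 0.00581, 0.0106 and 0.00977 in Het at day 14. At day 21 it was 0.00501, 0.00421, 0.00677 and 0.00453 in WT against 0.00337, 0.0235, 0.0177 and 0.0202 in Het. Het replicate 1 lay below its WT partner at both days (ratio 0.689), and the other 6 Het libraries were each above the WT libraries of their day (ratio 3.76). *Mmp28*, a secreted enzyme of epithelia and other tissues, was higher in Het in 8 of 8 pairs, replicate 1 included (ratio 1.54, and 1.40 in the rest). Its log2 difference was 0.51 ± 0.16 (edgeR adjusted p = 0.0452), between 0.00804–0.0175 in WT and 0.0108–0.021 in Het. This call of *Mmp28* was lost in 20 alternatives and kept in 15.

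**Figure D4:**
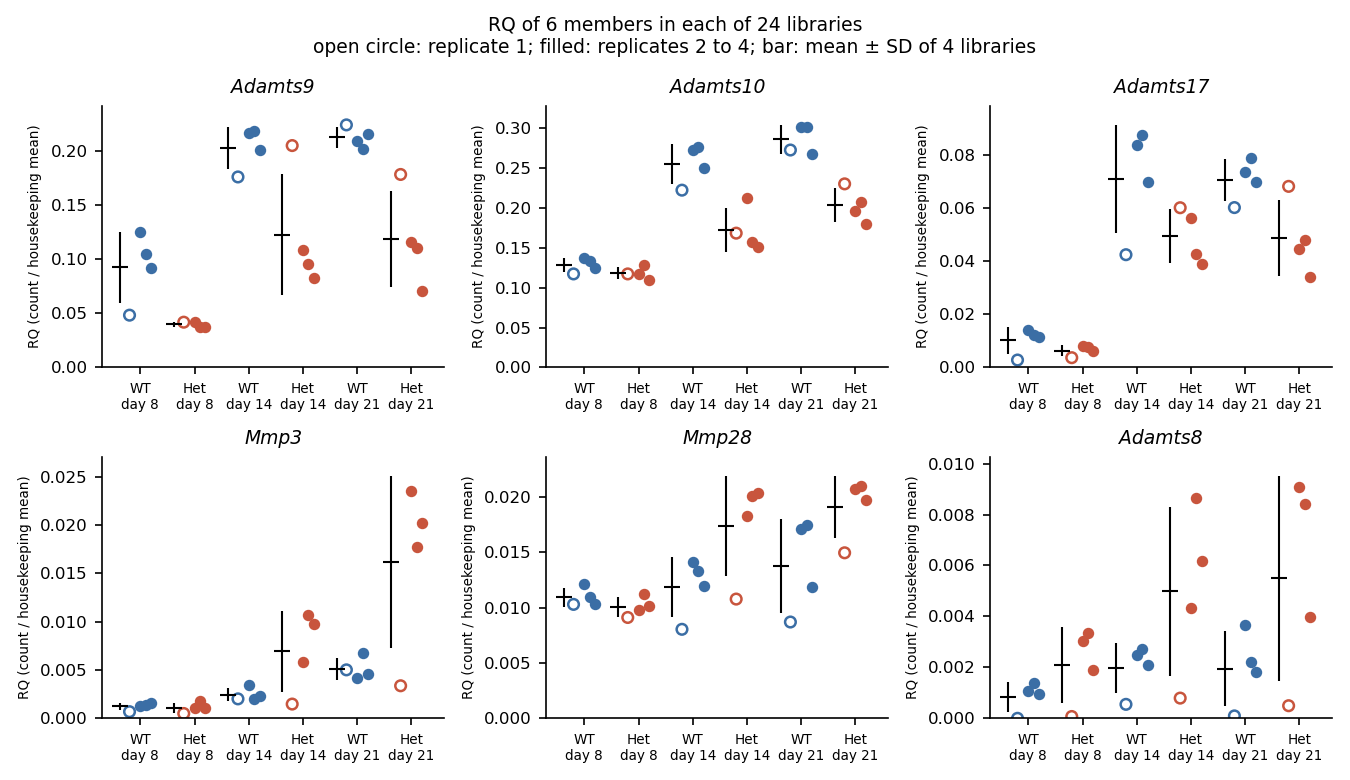
RQ of *Adamts9*, *Adamts10*, *Adamts17*, *Mmp3*, *Mmp28* and *Adamts8* in each of the 24 libraries, by genotype and day, with circles for libraries (open for replicate 1) and bars for the group mean ± SD (n = 4). In replicates 2 to 4 *Adamts9* was at 0.0708–0.116 in Het and 0.201–0.218 in WT at the later days, and *Mmp3* reached 0.0177–0.0235 in Het at day 21.

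The abundant *Mmp2* and *Mmp14*, partners in pericellular matrix breakdown, were lower in Het by small margins. *Mmp2* was at 2.61, 2.59, 2.52 and 2.54 in WT against 2.19, 1.90, 2.07 and 1.95 in Het at day 14. At day 21 the values were 2.19, 2.5, 2.40 and 2.27 in WT against 2.52, 2.04, 1.97 and 1.6 in Het. The exception was replicate 1 of day 21, where Het exceeded WT. The log2 difference of *Mmp2* was -0.27 ± 0.08 (edgeR adjusted p = 0.0247) and that of *Mmp14* was -0.25 ± 0.08 (edgeR adjusted p = 0.0483), the latter ranging over 1.13–1.71 in WT and 0.951–1.47 in Het. The call of *Mmp14* was lost with TMM (-0.2, edgeR adjusted p = 0.13), DESeq2 size factors (0.148) and the total count (0.19), and in 24 alternatives in all against 11 that kept it. *Mmp16* was at 0.11–0.133 in WT and 0.0929–0.142 in Het (-0.24 ± 0.07, edgeR adjusted p = 0.0374), with a ratio of 0.797 in replicates 2 to 4 and 1.01 in replicate 1. The call of *Mmp16* was lost in 20 alternatives and kept in 15. With the total count neither *Mmp2* (edgeR adjusted p = 0.0511) nor *Mmp16* (edgeR adjusted p = 0.065) was called. *Mmp8* was lower in Het in 8 of 8 pairs, with 0.00625–0.0159 in WT and 0.00257–0.0112 in Het (-0.73 ± 0.21, edgeR adjusted p = 0.0262).

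*Mmp13*, chosen here after its values were seen because it was the most abundant enzyme, had a log2 difference of -0.63 ± 0.31 (edgeR adjusted p = 0.168). It was lower in Het in 8 of 8 pairs, by a ratio of 0.938 in replicate 1 and 0.475 in replicates 2 to 4, where the genotypes did not overlap. The blocked difference was -0.79 (edgeR adjusted p = 0.0282), and without replicate 1 it was -1.03 (edgeR adjusted p = 0.000717). *Adamts8*, *Adamts18* and *Mmp12*, also chosen after their values were seen, were near the threshold. *Adamts8* was higher in Het in 8 of 8 pairs (1.40 ± 0.55, edgeR adjusted p = 0.0899, and 0.000708 with the block), and *Adamts18* lower in 8 of 8 (-0.40, edgeR adjusted p = 0.0671, and 0.043 with the block). *Mmp12* differed by 0.96 ± 0.33 (edgeR adjusted p = 0.0564, and 0.0642 with the block). It was called with TMM (edgeR adjusted p = 0.0354), DESeq2 size factors (0.0342), the total count (0.0293), DESeq2's Wald test (0.035) and without replicate 1 (1.37, edgeR adjusted p = 0.00369). The block also gave calls for *Mmp20* (-1.43, edgeR adjusted p = 0.00769), *Adamts4* (-0.19, edgeR adjusted p = 0.0465) and *Timp4* (-1.24, edgeR adjusted p = 0.0148).

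None of the 4 inhibitor genes was called between genotypes by edgeR without the block (with it, *Timp4* was, as given above), and at an unadjusted p under 0.05 only *Timp2* passed. *Timp1* was at 0.904–1.67 in WT and 1.03–1.74 in Het, higher in Het in 8 of 8 pairs (log2 difference 0.16 ± 0.13, edgeR adjusted p = 0.426). *Timp2* was at 2.75–3.20 and 2.16–3.17 (-0.15 ± 0.07, edgeR adjusted p = 0.141). *Timp3* was at 0.303–0.528 in WT and 0.332–0.485 in Het (0.14 ± 0.12, edgeR adjusted p = 0.446), with Het below WT in replicate 1 (ratio 0.769) and above it in the rest (1.27). *Timp4* was the most divided, with 0.00256, 0.00171, 0.0037 and 0.00263 in WT against 0.00431, 0.000894, 0.000693 and 0.000855 in Het at day 14. At day 21 its RQ was 0.00586, 0.00343, 0.00418 and 0.00453 in WT against 0.00673, 0.0012, 0.00139 and 0.000555 in Het. The difference over all libraries was -0.85 ± 0.46 (edgeR adjusted p = 0.222), the ratio being 1.31 in replicate 1 and 0.277 in the rest. In replicates 2 to 4 alone all 4 inhibitors were called: *Timp1* (0.22, edgeR adjusted p = 0.0437) and *Timp3* (0.34, edgeR adjusted p = 0.00505) higher, and *Timp2* (-0.22, edgeR adjusted p = 0.0168) and *Timp4* (-1.86, edgeR adjusted p = 3.72e-05) lower.

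**Figure D5:**
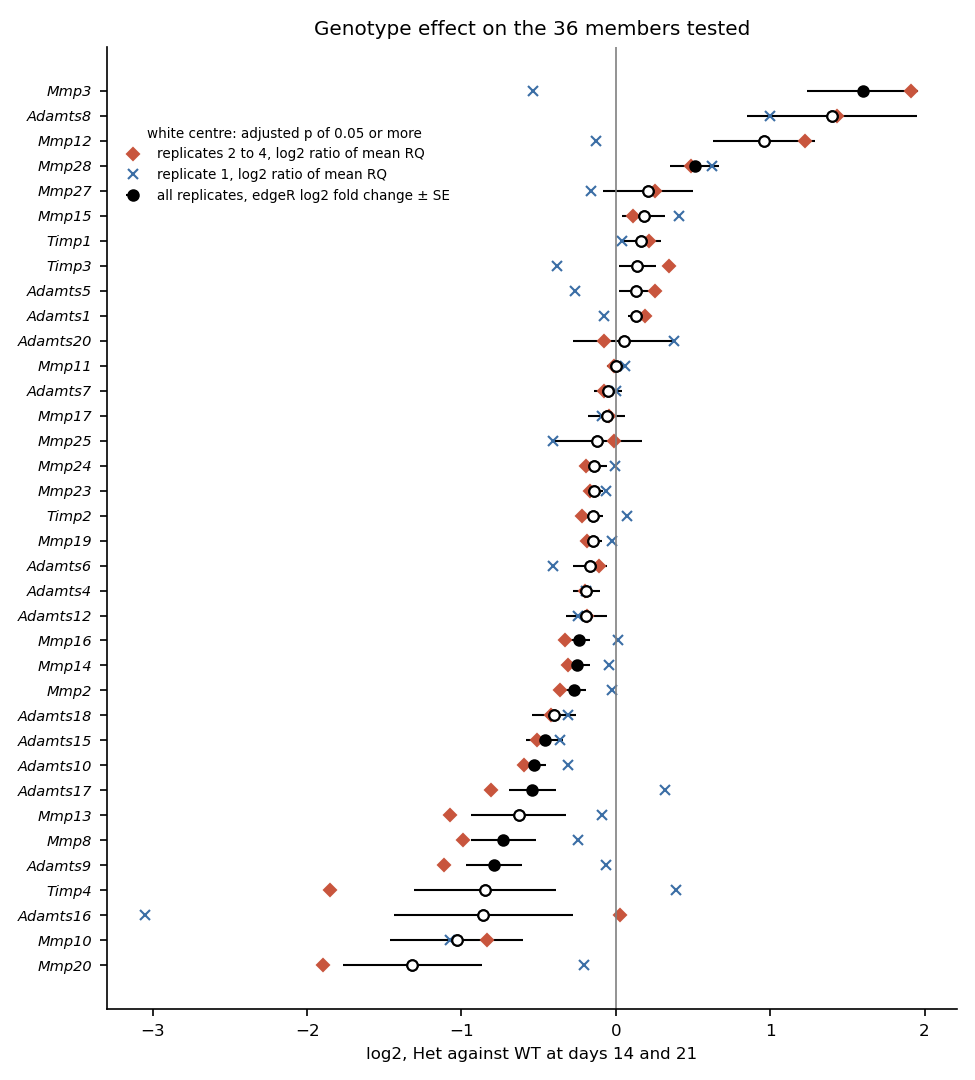
Log2 difference between Het and WT at days 14 and 21 for the 36 members tested, with circles and bars for all replicates (edgeR ± SE, filled for an adjusted p under 0.05), and the log2 ratio of mean RQ as diamonds for replicates 2 to 4 and crosses for replicate 1. *Timp4* and *Mmp3* show the gap between replicate 1 (ratios of 1.31 and 0.689) and the other replicates (0.277 and 3.76).

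Cell type markers differed between the genotypes at the same days, where 7.26% of all genes were higher and 8.88% lower in Het. Of 12 macrophage markers, 11 were higher in Het (median log2 difference 1.00), with a summed RQ of 5.07, 1.84, 1.58 and 2.69 in WT against 3.52, 8.03, 7.42 and 7.53 in Het at day 14. At day 21 the sums were 7.03, 7.2, 7.83 and 6.77 in WT against 8.98, 12.4, 12.3 and 19.8 in Het. At day 14 replicate 1 was the pair in which Het was below WT, as it was for *Mmp3* and *Mmp12*. In replicate 1 of day 21 the sum was higher in Het (8.98 against 7.03). *Mmp3* was lower there in Het (0.00337 against 0.00501), and *Mmp12* was level (0.2824 against 0.2825). At day 21 the highest sum, Het replicate 4, went with an *Mmp12* level of 0.133, below the 0.179 of its WT partner. Of 9 osteoblast markers, 6 were lower in Het (9 with the block), with sums of 183–330.0 in WT and 170.0–233 in Het at day 14, and 315–340.0 and 202–285 at day 21. The chondrocyte markers were called lower in 1 of 8 (8 with the block), and their sum was 24.4 and 26.2 in replicate 1 of WT and Het at day 14 against 7.78–14.9 and 1.80–2.90 in the rest. Of 4 fibroblast markers tested, 1 was higher in Het. Their sum was lower in Het in replicate 1, as for *Mmp3* (0.0415 in WT, 0.0178 in Het at day 14, then 0.0468 and 0.0363), and higher in the rest (0.0365–0.0387 and 0.0489–0.0767 at day 14, then 0.0461–0.0585 and 0.0799–0.0844). The part of these markers in the differences between genotypes was not tested.

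At day 8, none of the 33 members tested was called between genotypes by edgeR, and 0% of all 18222 genes were. At an unadjusted p under 0.05 there were 6 members and 1817 of all genes, DESeq2's Wald test called 2 (*Adamts9* and *Adamts15*, 2.37% of all genes), and the replicate block called 3 (*Adamts8*, *Adamts9* and *Adamts18*, 1.56% of all genes). *Adamts9* was at 0.0482, 0.125, 0.104 and 0.0917 in WT against 0.0417, 0.0422, 0.0373 and 0.0371 in Het, so that the genotypes did not overlap. Its log2 difference was -1.23 ± 0.25 (edgeR adjusted p = 0.173, and 0.0343 with the block). *Adamts15* was at 0.0018, 0.00321, 0.00286 and 0.00321 in WT against 0.00199, 0.000506, 0.000846 and 0.00084 in Het (-1.47, edgeR adjusted p = 0.235). *Adamts8* (1.25, edgeR adjusted p = 0.702, and 0.0315 with the block) and *Adamts18* (-1.26, edgeR adjusted p = 0.587, and 0.00639 with the block) were in the directions seen later. *Mmp8* was higher in Het in all 4 pairs, 0.000807–0.00128 against 0.000621–0.000772 in WT (0.53, edgeR adjusted p = 0.454). *Mmp13* showed -0.31 (edgeR adjusted p = 0.699). In replicates 2 to 4 alone, 15 members were called, 4 higher and 11 lower in Het, among 18.7% of all genes.

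Whether the genotype difference changed with time was tested directly. No member was called for the difference between the later days and day 8, against 0.171% of all 20434 genes (0.166% higher and 0.00489% lower), while 5 had an unadjusted p under 0.05 (1138 of all genes) and DESeq2 called 1 (*Adamts15*, 0.445% of all genes). These 5 were *Mmp3* (1.76, edgeR adjusted p = 0.568), *Mmp8* (-1.25, edgeR adjusted p = 0.336), *Adamts15* (1.04, edgeR adjusted p = 0.419), *Mmp28* (0.63, edgeR adjusted p = 0.717) and *Adamts10* (-0.41, edgeR adjusted p = 0.381). Without replicate 1, 4 were called (4.72% of all genes). They were *Mmp3* (2.03, edgeR adjusted p = 0.00348) and *Mmp28* (0.59, edgeR adjusted p = 0.0284), whose Het excess was larger at the later days, and *Adamts15* (1.59, edgeR adjusted p = 0.000426) and *Adamts18* (0.84, edgeR adjusted p = 0.042), whose Het deficit was larger at day 8. The genotype difference at day 21 minus that at day 14 was called for no member by edgeR or DESeq2, with 0% of all genes called. At an unadjusted p under 0.05 there were 0 members and 452 of all genes in edgeR, and 1 member in DESeq2 and 2 with the block. In replicates 2 to 4 it was also called for 0 members, against 0.0661% of all genes. These comparisons share libraries with the ones above.

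Genes that act on the enzymes were taken from lists of activators, inhibitors, relatives, substrates and AP-1 factors. Among all genes, 40.9% rose and 17.4% fell with maturation, and 7.26% were higher and 8.88% lower in Het at days 14 and 21. Of 9 activators and cofactors tested, 4 rose and 1 fell from day 8 to the later days. The proprotein convertase *Pcsk6* rose by 3.14 ± 0.12 on the log2 scale and the urokinase gene *Plau* by 1.06 ± 0.15, while the tissue plasminogen activator gene *Plat* fell by 1.09 ± 0.13. In Het, *Plau* was higher (0.54, edgeR adjusted p = 0.0447) and *Furin*, the convertase that activates membrane-type enzymes, lower (-0.23, edgeR adjusted p = 0.0105). Of 11 other inhibitors and clearance receptors, 6 rose and 2 fell with maturation, among them the membrane-anchored inhibitor *Reck* (0.85, edgeR adjusted p = 9.00e-08), and none was called between genotypes by edgeR (4 lower with the block).

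The ADAMTS-like proteins, which resemble ADAMTS enzymes but lack the protease domain, rose in 5 of 6, and *Adamtsl2* was also higher in Het (0.97, edgeR adjusted p = 0.0478). Of 8 ADAM sheddases, 5 rose and 1 fell with maturation. *Adam8*, a sheddase of myeloid cells, was higher in Het (0.92, edgeR adjusted p = 0.00904) and *Adam12* lower (-0.44, edgeR adjusted p = 0.00209). Of 9 proteoglycan and glycoprotein substrates tested, 2 rose and 6 fell, including the aggrecan gene *Acan* (-1.23, edgeR adjusted p = 0.0106), which is also among the chondrocyte markers. Among 7 AP-1 factors, 3 rose and 3 fell with maturation. In Het, 3 were higher, namely *Fos* (0.55, edgeR adjusted p = 0.00864), *Junb* (0.40, edgeR adjusted p = 0.0101) and *Jun* (0.27, edgeR adjusted p = 0.0424).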

How the data were processed

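Per the labels, RNA of 24 samples was read with a TrueSeq kit, and the submitters' notes name cutadapt 2.5, STAR 2.73a, Subread featureCounts 1.6.4 and mm10. The authors deposited raw counts per gene, not normalized, and a gene length. Strand and multi-mapping settings were not given in the sources used here. All 42 members matched GENCODE M21, and their deposited lengths equal their merged exons.

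From these counts, genes passing filterByExpr were fitted with edgeR 4.0.16 (R 4.3.3, quasi-likelihood test), with 4 housekeeping genes (*Actb*, *Actg1*, *Sdha*, *Mrfap1*) combined as a geometric mean and used as library size, after the study's own scaling. P-values were adjusted over all genes tested by Benjamini-Hochberg, with a threshold of 0.05. SEs were derived from the F statistic. Genotypes were compared over days 14 and 21 with day as a covariate and at day 8, days over 6 group means or with genotype as a covariate, and differences of effects over all 24 libraries. The fit was checked on simulated counts. In 36 pairs of replicates, chi-square divided by its degrees of freedom was at least 4.78, so no library was a copy of another of its group. Copies across groups and libraries mixed from others were not tested.

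Same-numbered WT and Het libraries deviated together from their group means (correlation over 20287 genes 0.24 to 0.776 in 12 pairs, median 0.428). The median was -0.08 in 36 pairs of different numbers, but most of this contrast was replicate 1 against the rest. Pairs of different numbers were at -0.634 to -0.256 with replicate 1 and at 0.095 to 0.473 among replicates 2 to 4. Same-numbered pairs were at 0.601 to 0.776 in replicate 1 and at 0.24 to 0.508 in replicates 2 to 4. The correlations therefore hardly tell numbers 2 to 4 apart, and counts of same-numbered pairs are descriptions only. The labels do not say what the number marks, but every same-numbered pair was above 0.1, and a fit with the number as a block stands beside results it changes.

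Members and lists were chosen with earlier results of these data known. Values in full were given for *Timp* genes, members called in a genotype comparison, and those with the largest changes between days and a mean count of at least 50. Alternatives were DESeq2 1.42.0 (also its size factors), TMM and total count scaling, no filter, the block, single days, no day covariate, an exact permutation test of RQ, and leaving out each number or library. Motifs were searched in RefSeq windows on GRCm38.p6 with Python 3.11.15. Protein sequences were not used here.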

Additional observations from a re-analysis of the deposited data

Results flagged for a closer look

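Dixon's test was run on the 4 libraries of each group for 22 genes, 132 groups in all, and chance alone sets apart about 1 in 20 groups. It set apart 6 values, all of replicate 1 and all higher than the other 3 of their group, and 6 of 132 is near the share set apart by chance. They came from Het replicate 1 of days 14 and 21 and from WT replicate 1 of day 14. *Mmp13* had an RQ of 11 in Het replicate 1 of day 21, where the other Het libraries were at 2.10 to 2.93. *Mmp16* was at 0.142 in the same library (others 0.0989 to 0.104), and *Mmp24* at 0.0511 (others 0.0363 to 0.0379). *Mmp24* was also high in WT replicate 1 of day 14, at 0.0516 against 0.0417 to 0.0428. *Timp4* was at 0.00431 in Het replicate 1 of day 14 (others 0.000693 to 0.000894) and at 0.00673 in that of day 21 (others 0.000555 to 0.00139). Replicate 1 libraries were also the shallowest of their groups, and their chondrocyte marker sum was the highest of every group. The part of either in these values was not tested.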

How the results depend on the processing

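Genotype calls at days 14 and 21 depended most on the replicates. The 10 members became 16 with the replicate block, 6 without the day covariate, 0 at day 14 alone and 1 at day 21 alone (*Adamts10*). Leaving out a replicate number gave 1 to 24 members (24 without replicate 1), and leaving out a library 4 to 21. The lowest were 4 without Het replicate 4 of day 14, 5 without WT replicate 2 of day 14 and 6 without Het replicate 4 of day 21, and the highest was 21 without Het replicate 1 of day 21. At day 8, where 0 were called, DESeq2 gave 2, the block 3, leaving out a number 0 to 15 (15 without replicate 1) and leaving out a library 0 to 5 (5 without Het replicate 1, 2 without WT replicate 1). For the later minus the day 8 effect, DESeq2 gave 1, leaving out a number 0 to 4 and a library 0 to 1. Between days 14 and 21, the 9 became 14 with the block, 4 to 14 without a number (4 without replicate 4, 14 without replicate 1) and 7 to 11 without a library. Maturation calls went from 26 to between 23 and 29 without a number. The block moved no other count of members by more than 1.5 times. The cause was not tested.

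With maturation under total count scaling, *Mmp19*, *Mmp11*, *Adamts1* and *Adamts4* turned sign and were called lower. Among the members whose values are given under each alternative, signs turned for small differences that were not called under the alternative: *Timp3* between genotypes at day 14 alone (-0.02), and with maturation *Timp3* without replicate 1 (0.07), without replicate 1 of WT (0.05) or Het (0.01) at day 8 (-0.12 to 0.07 over the numbers left out), *Mmp14* (-0.10) and *Timp1* (-0.05) with the total count, and *Mmp2* in WT alone (0.03). Of 252 levels per kb, 95 moved by more than an SD with the longest transcript as length. Fewer counts in replicate 1 and at day 8 limit members such as *Mmp10*, *Mmp20* and *Timp4*.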
